A study of Mus musculus with 13 samples.

Results

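The 34 genes described here code for the hypoxia-inducible factor (HIF) system, for the enzymes and transporters of glycolysis, and for a few other proteins that low oxygen is known to induce. They were chosen by symbol, by their part in these pathways, and all 34 were found among the 48709 mouse genes of the count table. All 34 also passed the filter on low counts, which left 16328 genes for testing. By role they are 6 HIF subunits and regulators, 1 angiogenic ligand, 4 glucose and lactate transporters, 14 glycolytic enzymes, 3 switches of glycolytic flux, 2 lactate dehydrogenases and 4 other hypoxia-induced genes. The RNA was that of the enamel organ, an epithelium whose ameloblasts lay down enamel, taken from lower incisors of mouse pups (postnatal day 11). The 5 Het libraries came from mice with 1 wild-type Tgfbr2 allele and 1 allele carrying the substitution G357W, a glycine-to-tryptophan change in TGF-beta receptor type 2. The 8 WT libraries came from littermates with both Tgfbr2 alleles wild type. The sources used here do not say how the allele was made or which cells express it, and they name no other allele or treatment. Each library is called here by its genotype and the number pair in its column name, such as Het 4-2.

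In cells with enough oxygen, prolyl hydroxylases mark the alpha subunits of HIF, and the von Hippel-Lindau protein then directs them to degradation. When oxygen falls, the alpha subunits persist, pair with ARNT and bind DNA elements with the core ACGTG or GCGTG, raising transcription of genes for glucose uptake, glycolysis, lactate export and blood vessel growth. The alpha subunits are therefore controlled mainly as proteins, which transcript counts do not show. The enamel organ is an epithelium without vessels of its own among its cells, and it draws on capillaries that lie against its outer layer.

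Across the 34 genes, Het and WT enamel organs differed little in transcript level, and no gene passed the threshold in edgeR's quasi-likelihood test (Benjamini-Hochberg adjusted p under 0.05, over every gene that was tested). Of all 16328 genes tested, 14 passed it, or 0.0857%. Ndrg1, a hypoxia-induced gene also known for its part in myelin maintenance in Schwann cells, came nearest. It was 1.5-fold higher in Het (log2 fold change 0.59 ± 0.13 SE, edgeR adjusted p = 0.077). Ndrg1 was also the 1 gene of the 34 (2.94%) at an unadjusted p under 0.05, where 6.9% of all genes tested stood. DESeq2 called it (adjusted p = 0.00573) and called no other of the 34, against 0.453% of all genes tested. With no filter on low counts edgeR called it too (adjusted p = 0.0455), against 0.0858% of the genes then tested. Over all 25 alternatives its adjusted p ran from 0.00573 to 0.714, and limma-voom called none of the 34.

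The differences were small as well as uncalled. The log2 fold change was positive for 21 genes (61.8%) and negative for 13, whereas 49.1% of all genes tested were positive. Its median was 0.03, beside -0.00 over all genes tested. Its size was under 0.1 in 20 of the 34 and under 0.3 in 32, and the other two were Egln3 and Ndrg1. The median size was 0.0749 on the log2 scale, beside 0.136 over all genes tested. For none of the 34 did the ranges of the 5 Het and 8 WT libraries stay apart, a pattern found in 0.49% of all genes tested. The genes were also comparatively steady within groups. Their median biological coefficient of variation, the spread between libraries beyond counting error, was 0.166 beside 0.204 for all genes tested, and 24 of the 34 lay below the latter value. Neither this median nor the median size of fold change was set against genes of like level.

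**Figure D1:**
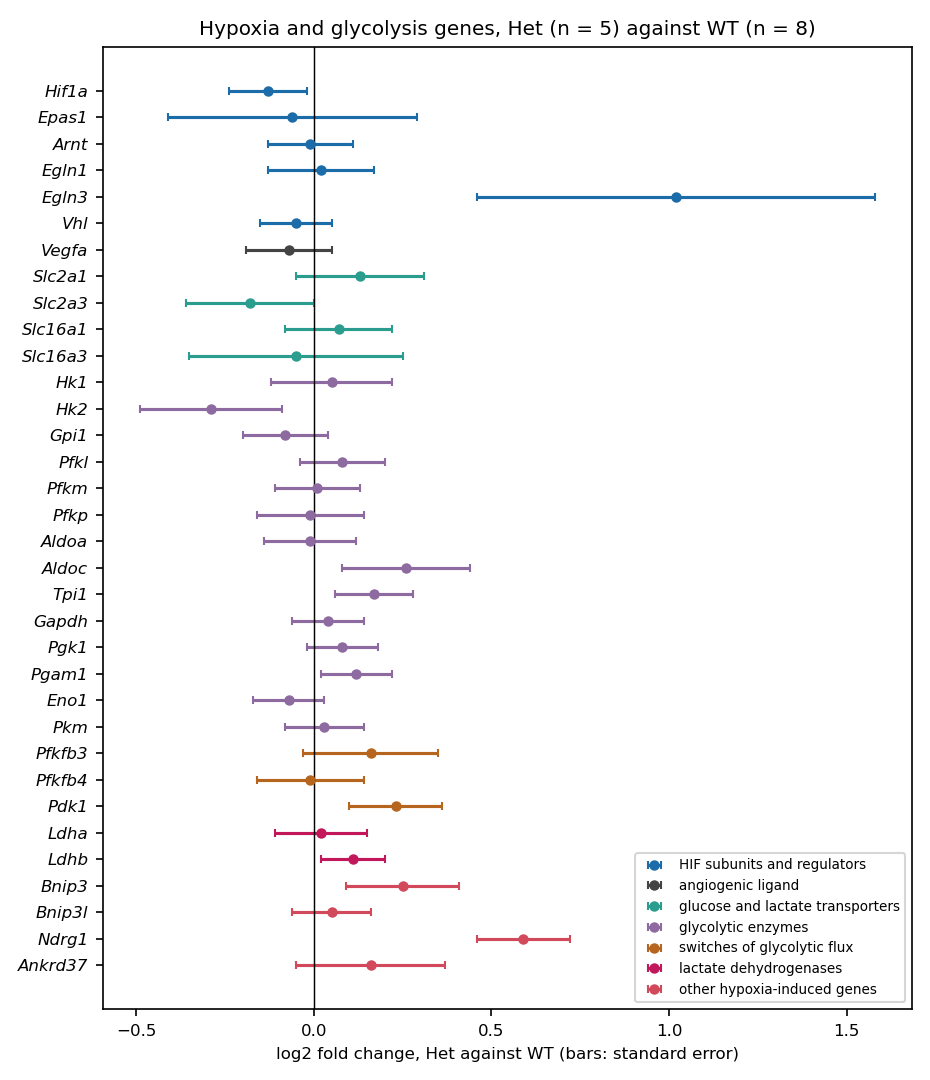
Log2 fold change of each gene, Het (n = 5) against WT (n = 8), with standard errors from edgeR. Genes are ordered and coloured by role. Most points lie within 0.3 of 0, and Egln3 (1.02 ± 0.56) and Ndrg1 (0.59 ± 0.13) lie farthest from it.

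Total gene counts ran from 20266079 to 26122340 in Het and from 18852382 to 26508410 in WT. Tgfbr2 itself lay between 5.70 and 6.44 log2 CPM in the 13 libraries (log2 fold change 0.22 ± 0.11, edgeR adjusted p = 0.741). CPM are counts scaled to a common library size with TMM factors, logged with a prior count of 2. Since the allele differs by a substitution, this level does not check the genotype labels. The 13 ameloblast and enamel organ markers averaged 9.72 ± 0.19 log2 CPM (mean ± SD) over the 5 Het libraries and 9.77 ± 0.13 over the 8 WT libraries. No marker of that list or of 8 lists for other cell types was called by edgeR, DESeq2 or limma-voom. At most 2 of a list stood at an unadjusted p under 0.05, and no marker in the table was at 0 in every library. Of the 8 osteoblast and bone markers 0 were higher in Het, with means of 6.81 ± 0.21 log2 CPM in Het and 7.10 ± 0.27 in WT. Skeletal muscle markers averaged 0.01 ± 0.95 in Het and 0.27 ± 1.21 in WT. Of the 8 endothelium and pericyte markers 6 were higher in Het, with means of 4.69 ± 0.25 and 4.62 ± 0.27. In bulk RNA, fewer cells of a type and less RNA per cell cannot be told apart.

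The levels of the genes, compared per length, spanned a wide range, with lactate dehydrogenase at the top. Levels are given as CPM per kilobase of merged exons over all 13 libraries. Ldha, which makes lactate from pyruvate, stood at 196 ± 30.2 (SD, n = 13). Aldoa, the aldolase that splits the phosphorylated hexose, stood at 139 ± 21.1, and Pkm, the pyruvate kinase gene, at 95.7 ± 9.22. Ldhb, the other lactate dehydrogenase subunit, stood at 83.4 ± 8.09, and Hk2, a hexokinase, at 68.9 ± 20.7. These 5 also led, in the same order, when the length of the principal transcript was used, a choice made after seeing the data. The lowest was Egln3, a HIF prolyl hydroxylase, at 0.167 ± 0.14 with 0 counts in 1 library. Slc16a3, the lactate exporter MCT4, stood at 0.528 ± 0.246 and Slc2a3, the glucose transporter GLUT3, at 0.72 ± 0.148.

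**Figure D2:**
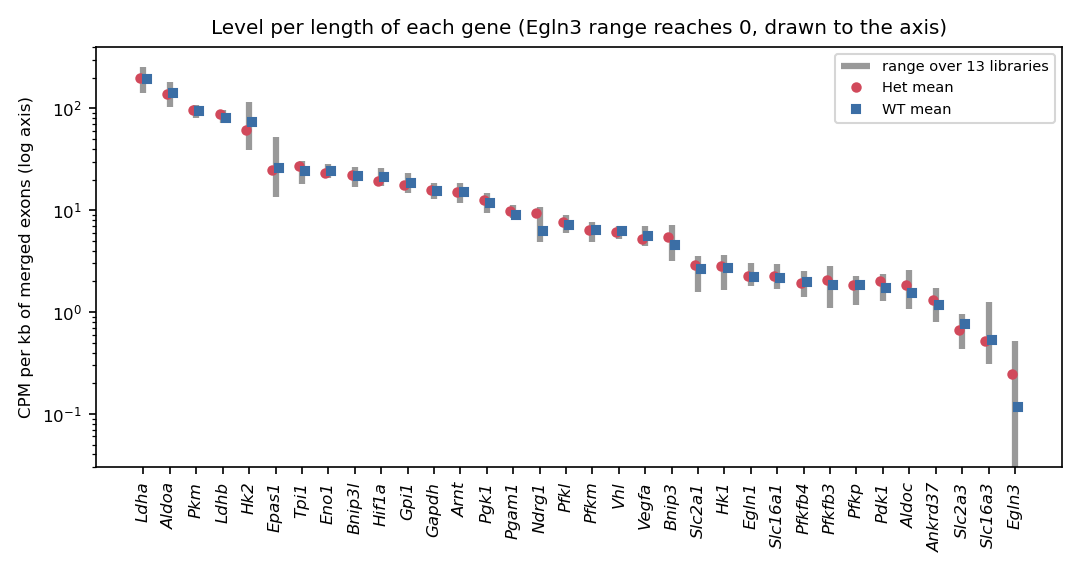
Level per length of each gene on a log axis, as CPM per kilobase of merged exons. Points give the Het (n = 5) and WT (n = 8) means and bars the range over 13 libraries. Ldha is highest at 196 on average, Egln3 lowest at 0.167, and the Het and WT means lie close together for most genes.

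Where glycolysis can use alternative enzymes, 1 form usually took most of the summed level of the genes compared, in both genotypes. A family here holds only the genes named in its sum, and other paralogs were left out. Some of these lay above the genes compared, as given below in log2 CPM, which is not scaled for length. Others lay lower, such as Hk3 and Pfkfb1. Hk2 took 95.5% ± 1.1 of the Hk1 and Hk2 sum in the 5 Het libraries (mean ± SD) and 96.4% ± 0.757 in the 8 WT libraries. Aldoa took 98.7% ± 0.241 of the aldolase pair in Het and 98.9% ± 0.251 in WT. Ldha took 69.0% ± 2.68 of the dehydrogenase pair in Het and 70.4% ± 3.0 in WT. These shares add to 100% within a family, so each partner's share follows from them. Among carriers, Slc2a1, the glucose transporter GLUT1, took 81.2% ± 4.16 in Het and 77.1% ± 6.68 in WT of its sum with Slc2a3. Slc2a12, a paralog outside that sum, averaged 4.15 log2 CPM in Het and 3.95 in WT, above Slc2a1 at 3.36 and 3.18. Slc16a1, the lactate and pyruvate carrier MCT1, took 81.3% ± 2.18 in Het and 80.7% ± 6.61 in WT of its sum with Slc16a3. Slc16a7, a paralog outside that sum, averaged 4.21 log2 CPM in Het and 4.43 in WT, above Slc16a1 at 3.3 and 3.24. The phosphofructokinases, whose reaction commits sugar to glycolysis, were shared more evenly. In Het, Pfkl held 48.0% ± 1.28, Pfkm 40.4% ± 1.28 and Pfkp 11.6% ± 0.847. With principal transcript lengths the Het shares became 50.4%, 27.5% and 22.1%, and the WT shares 48.9%, 28.3% and 22.8%. Pfkl thus led on average either way, while the sizes of the other shares depended on length. Hif1a and Epas1, the alpha subunits HIF-1 alpha and HIF-2 alpha, were close to even, with 47.9% ± 9.94 for Hif1a in WT and 53.0% ± 10.1 with principal lengths. Egln1 held 90.0% ± 5.7 of the Egln1 and Egln3 sum in Het and 95.0% ± 4.13 in WT. Egln2, a paralog outside that sum, averaged 4.75 log2 CPM in Het and 4.65 in WT, above Egln1 at 3.0 in each. Bnip3l held 80.5% ± 2.12 of its pair with Bnip3 in Het and 82.3% ± 3.04 in WT. Within their own sum, Pfkfb3 and Pfkfb4 were near even, with 51.4% ± 4.89 for Pfkfb3 in Het and 47.7% ± 6.98 in WT. Pfkfb2, a paralog outside that sum, lay above both, at 6.33 log2 CPM in Het and 6.56 in WT. Pfkfb3 averaged 3.96 and 3.73, and Pfkfb4 3.25 and 3.24. No test was run on these shares, and the Het and WT ranges given by mean and SD overlap in every family.

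The HIF core motif was common in the promoters of these genes. RefSeq promoter sequences (GRCm38.p6) were matched by symbol for 30 of the 34 genes. Ndrg1, Bnip3l, Epas1 and Slc2a3 were not among them. In the 250 bases before the most upstream start in that RefSeq table, ACGTG or its reverse complement CACGT was present in 14 of the 30 (46.7%). It was present in 20.9% of the 11327 promoters of tested genes and in 16.5% of 27025 promoters in all. The variant core GCGTG or its reverse complement CACGC was in 50.0% of the 30, beside 44.4% for tested genes and 28.3% in all. Separate places with ACGTG numbered 2 or more in 6 of the 30 (20.0%), beside 2.93% of tested genes. A place reading CACGTG, the same on both strands, was counted once. Ldha held 3 places, and Hif1a, Hk2, Pgk1, Slc16a3 and Ankrd37 held 2 each. The number of CpG pairs, which could favour such letters, had a median of 14 in these promoters and 15 in those of tested genes. Among the 30 it ran from 0 in Aldoa to 51 in Egln1. The part of CpG content in the motif shares was not tested. To show how such places lie, windows of 120 bases are printed for 3 genes that hold at least 2 places close together, with the places in capitals. Slc16a3 also has such a window, but it reaches into an annotated exon and is not printed. The window of Ldha lies at chr7:46845657-46845776, that of Pgk1 at chrX:106186902-106187021 and that of Hif1a at chr12:73907707-73907826, all on the plus strand. In GENCODE M21, 1 transcript each of Ldha and Hif1a begins farther upstream, so these 2 windows lie inside the span of the gene in that annotation.
Ldha: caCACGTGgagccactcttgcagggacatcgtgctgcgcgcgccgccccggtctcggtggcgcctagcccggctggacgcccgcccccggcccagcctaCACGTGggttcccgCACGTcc
Pgk1: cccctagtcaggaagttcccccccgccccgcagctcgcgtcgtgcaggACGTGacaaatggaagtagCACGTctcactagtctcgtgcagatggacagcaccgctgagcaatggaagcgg
Hif1a: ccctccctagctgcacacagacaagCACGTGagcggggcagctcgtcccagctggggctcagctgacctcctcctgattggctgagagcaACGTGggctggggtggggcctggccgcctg
A match to these letters is a description of the sequence and does not show that HIF binds there. For the 3 genes shown, the log2 fold change was 0.02 for Ldha, 0.08 for Pgk1 and -0.13 for Hif1a, and none was called.

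Among the HIF subunits and regulators, 2 of 6 log2 fold changes were positive, none was called, and the median was -0.03. Egln3 had the smallest p of the group. Its level was -0.44, 0.56, -1.08, -1.14 and -0.81 log2 CPM in Het 1-2, 4-2, 4-5, 5-5 and 5-6, and ran from -3.56 to 0.03 with a median of -1.46 in WT. All 5 Het libraries lay above the WT median, but 2 WT libraries lay above the lowest Het library, so the groups overlapped. The log2 fold change was 1.02 ± 0.56 (edgeR adjusted p = 0.761), and 0.54 without Het 4-2 (edgeR adjusted p = 0.793, range 0.607 to 0.993 over its alternatives). It rests on 9 to 33 counts per Het library and 0 to 23 per WT library, and its coefficient of variation of 0.596 was above that of 97.3% of genes tested.

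Hif1a lay at 6.84, 6.66, 6.92, 6.67 and 7.06 log2 CPM in the Het libraries and between 6.67 and 7.24 in WT, with a median of 6.91. The groups overlapped throughout (log2 fold change -0.13 ± 0.11, edgeR adjusted p = 0.83). Epas1 varied far more than its paralog, from 6.24 in WT 5-3 to 8.18 in WT 4-4, with Het values of 7.10, 7.05, 7.79, 6.51 and 6.88 and a WT median of 6.68. Its log2 fold change was -0.06 ± 0.35 (edgeR adjusted p = 0.982). Epas1 is known to be abundant in endothelium, so the endothelium and pericyte markers are given beside it. Their mean was highest in WT 4-4, at 5.04 log2 CPM, and ran from 4.22 to 5.04 in WT and from 4.25 to 4.84 in Het. One marker, Rgs5, made up 99.1% of the summed level of that list. With Rgs5 the sum was highest in WT 4-4, at 14400 CPM, and next in WT 1-1, at 12900 CPM, where Epas1 was second highest at 8.06. Without Rgs5 the sum was 114 CPM in WT 4-4, the highest of all libraries, and 92.4 CPM in WT 1-1. Het 4-5, with Epas1 at 7.79, had 7240 CPM with Rgs5 and 101 CPM without it. WT 4-4 also had the highest mean of the fibroblast and mesenchyme markers, 7.25 log2 CPM, and the lowest summed level of ameloblast markers, 202000 CPM. In WT 1-1 these were 6.43 log2 CPM and 233000 CPM. The part of any of these cell types in the spread of Epas1 was not tested. Arnt, the shared partner subunit, gave a log2 fold change of -0.01 ± 0.12, and Vhl, the recognition subunit of the ubiquitin ligase, -0.05 ± 0.10. Egln1, the main prolyl hydroxylase that senses oxygen, gave 0.02 ± 0.15. The edgeR adjusted p was at least 0.945 for these 3 genes.

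Vegfa, the angiogenic ligand of vascular endothelial growth factor receptors, was at 4.45, 4.43, 4.91, 4.33 and 4.25 log2 CPM in the Het libraries. In WT it ran from 4.26 to 4.72 with a median of 4.60. Het 4-5 held the highest value and Het 5-6 the lowest, so the Het range enclosed the WT range (log2 fold change -0.07 ± 0.12, edgeR adjusted p = 0.92).

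The 4 transporters split evenly in sign and none was called. Slc2a3 had the smallest p, with 2.15, 2.02, 2.20, 2.44 and 2.58 log2 CPM in Het and 1.69 to 2.82, median 2.47, in WT (log2 fold change -0.18 ± 0.18, edgeR adjusted p = 0.867). Its groups overlapped, and WT 5-1 was the lowest library. Slc16a3 had the second widest range of all 34 genes, 1.98 on the log2 scale. Het libraries held 1.32, 1.08, 1.99, 1.33 and 1.62 log2 CPM, and WT libraries ran from 0.78 to 2.76 with a median of 1.40. The top value, in WT 4-4, stood apart from the next WT value of 1.59, and the fold change was close to even (log2 fold change -0.05 ± 0.30, edgeR adjusted p = 0.984). Slc2a1 gave a log2 fold change of 0.13 ± 0.18 and Slc16a1 0.07 ± 0.15.

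Of the 14 glycolytic enzymes, 9 had a positive and 5 a negative log2 fold change, with a median of 0.03, extremes of -0.29 and 0.26, and no call. Tpi1, which interconverts the triose phosphates, had the smallest p. It stood at 6.40, 5.96, 6.30, 6.22 and 6.25 log2 CPM in Het and from 5.62 to 6.21 with a median of 6.10 in WT. In 4 of 5 Het libraries it lay above every WT library, and Het 4-2 lay within the WT range (log2 fold change 0.17 ± 0.11, edgeR adjusted p = 0.786). Hk2, the dominant hexokinase here and the enzyme that traps glucose in the cell, had the most negative fold change and the widest range of the enzymes. Het libraries held 8.30, 8.87, 8.69, 7.87 and 8.57 log2 CPM, and WT libraries ran from 8.04 to 9.44 with a median of 8.69. The lowest value was in Het 5-5 and the highest in WT 1-1, and the groups overlapped (log2 fold change -0.29 ± 0.20, edgeR adjusted p = 0.805). Aldoc, the minor aldolase, had the most positive fold change, 0.26 ± 0.18 (edgeR adjusted p = 0.805).

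The main enzymes of the lower pathway gave fold changes near 0 with small errors. Pkm gave 0.03 ± 0.11, Gapdh, the dehydrogenase of glyceraldehyde phosphate, 0.04 ± 0.10, and Eno1, the enolase, -0.07 ± 0.10, all as log2 fold changes. The kinase Pgk1 gave 0.08 ± 0.10 and the mutase Pgam1 0.12 ± 0.10. In the upper pathway the isomerase Gpi1 gave -0.08 ± 0.12, Hk1 0.05 ± 0.17 and Aldoa -0.01 ± 0.13. The 3 phosphofructokinases gave 0.08 ± 0.12 for Pfkl, 0.01 ± 0.12 for Pfkm and -0.01 ± 0.15 for Pfkp. The edgeR adjusted p was at least 0.849 for each gene of this paragraph.

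The switches of flux were not called either. Pdk1, a kinase that shuts pyruvate dehydrogenase and so keeps pyruvate out of mitochondria, stood at 3.84, 3.99, 4.19, 3.93 and 3.86 log2 CPM in Het and at 3.34 to 4.13, median 3.79, in WT. All 5 Het libraries lay above the WT median, and the groups overlapped (log2 fold change 0.23 ± 0.13, edgeR adjusted p = 0.763). Pfkfb3 and Pfkfb4 make the sugar bisphosphate that activates phosphofructokinase, and gave log2 fold changes of 0.16 ± 0.19 and -0.01 ± 0.15. Both lactate dehydrogenases were slightly positive. Ldhb stood at 7.15, 6.82, 7.18, 7.07 and 7.24 log2 CPM in Het and at 6.83 to 7.12, median 7.02, in WT. In 3 Het libraries it lay above every WT library, and in Het 4-2 below every one (log2 fold change 0.11 ± 0.09, edgeR adjusted p = 0.841). Ldha gave 0.02 ± 0.13 (edgeR adjusted p = 0.985).

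All 4 other hypoxia-induced genes had positive fold changes, and Ndrg1 had the largest of them. It lies at chr15:66929318-66969640 on the minus strand of GRCm38. It was at 5.68, 6.15, 6.13, 5.80 and 6.01 log2 CPM in Het 1-2, 4-2, 4-5, 5-5 and 5-6, and between 5.00 and 5.68 with a median of 5.34 in WT. In 4 of 5 Het libraries it lay above every WT library, and the lowest Het library, Het 1-2, fell just under the highest WT library. Per length this was 9.45 ± 1.33 CPM per kilobase in the 5 Het libraries (mean ± SD) and 6.28 ± 1.12 in the 8 WT libraries. Het exceeded WT within each library prefix, the number before the hyphen, by 0.30 in prefix 1 (1 Het, 3 WT), 0.80 in prefix 4 (2 Het, 3 WT) and 0.54 in prefix 5 (2 Het, 2 WT). Its meaning is not stated in the labels. The fold change stayed between 0.46 and 0.67 on the log2 scale over all 25 alternatives. Leaving out any 1 library left the adjusted p between 0.0599 and 0.227.

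Since Ndrg1 is known from Schwann cells, the 6 nerve and Schwann cell markers are given beside it. Their mean was 2.22 ± 0.58 log2 CPM (mean ± SD) over the 5 Het libraries and 2.02 ± 0.30 over the 8 WT libraries, with 4 of 6 higher in Het. Their summed level ran from 37.7 to 63.0 CPM in Het and from 38.1 to 53.7 CPM in WT. Of the 6, 1 stood at an unadjusted p under 0.05 in edgeR and none was called. Mbp made up 37.0% of the summed level, and ran from 3.72 to 4.86 log2 CPM in Het and from 3.31 to 4.49 in WT. Without Mbp the sum ran from 24.6 to 35.0 CPM in Het and from 23.1 to 34.6 CPM in WT. The Schwann cell factor Sox10 was near the floor, with at most 0.08 log2 CPM in any library. By library the mean of these markers was 2.33, 2.73, 2.40, 2.42 and 1.22 log2 CPM in Het 1-2, 4-2, 4-5, 5-5 and 5-6, and ran from 1.48 to 2.53 in WT. The first 4 of these lay in the upper part of the WT range or above it, and Het 5-6, with Ndrg1 at 6.01, lay below it. The part of these cells in the difference of Ndrg1 was not tested.

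Bnip3 and Bnip3l, whose proteins direct mitochondria to autophagy, gave log2 fold changes of 0.25 ± 0.16 (edgeR adjusted p = 0.792) and 0.05 ± 0.11 (edgeR adjusted p = 0.954). Bnip3 stood at 3.63, 3.03, 3.40, 4.03 and 3.88 log2 CPM in Het and at 2.86 to 3.68, median 3.44, in WT. Het 5-5 and Het 5-6 lay above every WT library, while Het 4-2 lay below all WT libraries but WT 1-1. Ankrd37, an ankyrin repeat gene, gave 0.16 ± 0.21 (edgeR adjusted p = 0.897) at 29 to 65 counts per library. Of its 75-base windows, 13.3% are shared with Lrp2bp, which overlaps it on the other strand and held 458 counts in all, beside 577 for Ankrd37. The kit does not mark strand, so reads of the stretch shared with Lrp2bp cannot be told apart. Ufsp2 also overlaps Ankrd37 on the other strand, without a shared window, and held 84686 counts in all.

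**Figure D3:**
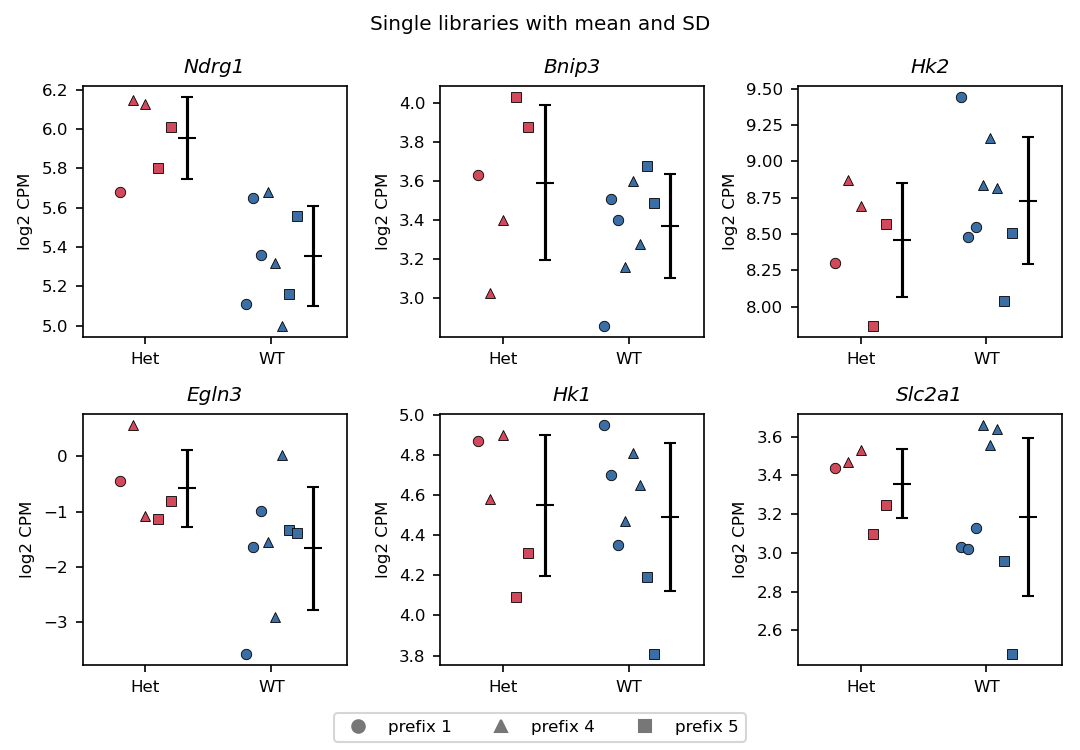
Log2 CPM of 6 genes in each of the 5 Het and 8 WT libraries, with the mean and SD at the right of each group. Marker shapes give the library prefix. Ndrg1 is higher in 4 of 5 Het libraries than in any WT library, and prefix 5 libraries (squares) are the lowest for Hk1 in each genotype.

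Single libraries moved several of these genes together, in both genotypes. WT 5-3 held the lowest value for 8 of the 34 genes, and all 16 glycolytic enzymes and lactate dehydrogenases lay below their mean there. The median deviation of the 34 in that library was -0.19 on the log2 scale. Het 4-2 held the lowest value for 7 genes, 6 of them among those 16, yet it held the highest values of Egln3 and Ndrg1. In the other direction, Het 4-5 lay above the mean for 15 of the 16, and WT 4-3 held the highest value for 5 of them. WT 1-4 lay below the mean for 15 of the 16. It also had the highest summed level of skeletal muscle markers, 176 CPM, while these ran from 11.2 to 74.5 CPM in the other libraries. Het libraries thus lay at both ends, and the share of genes that had the same sign of difference in all 3 prefixes was 11 of 34, beside 36.3% of all genes tested.

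**Figure D4:**
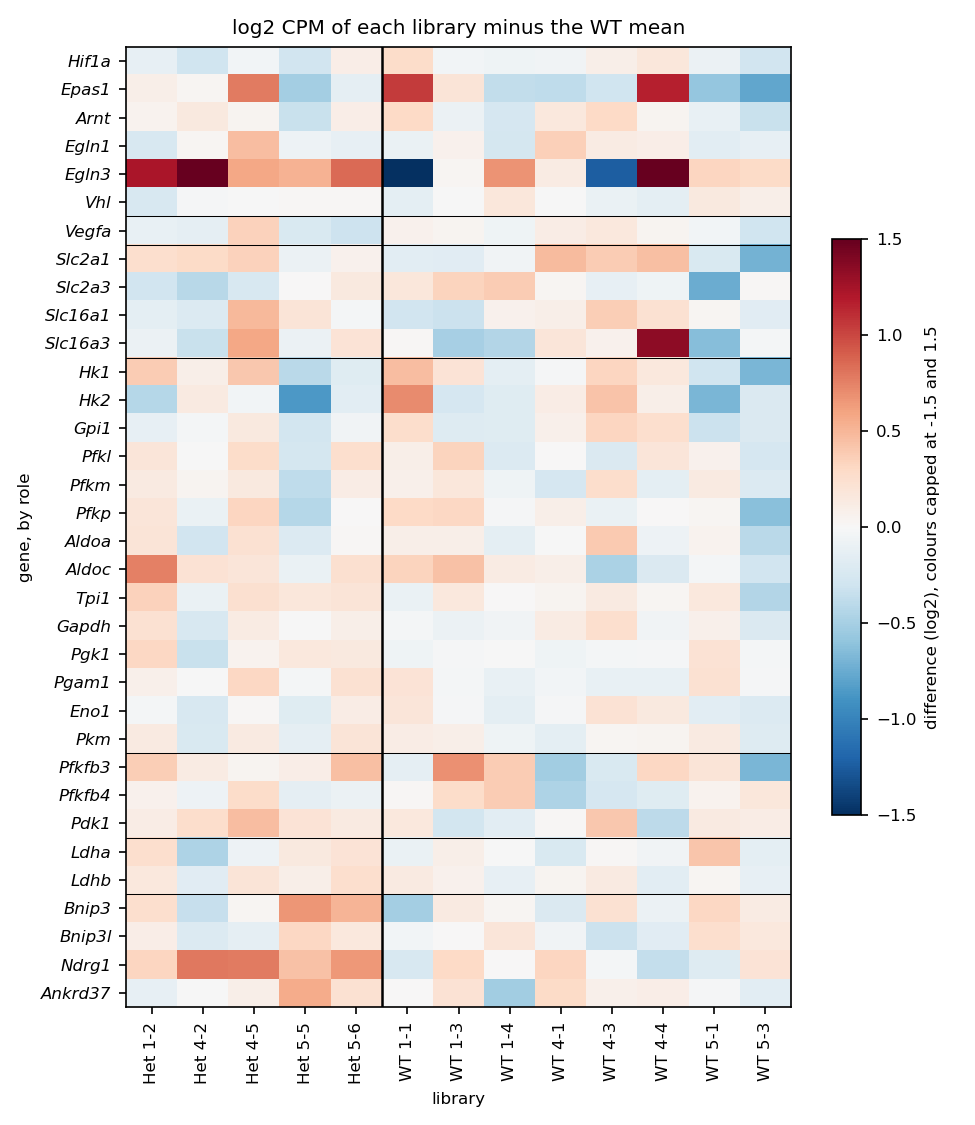
Log2 CPM of each gene in each library minus its WT mean, with genes grouped by role and a line between Het and WT libraries. Colours are capped at -1.5 and 1.5. WT 5-3 is mostly blue across the glycolytic enzymes, Ndrg1 is red in all 5 Het libraries, and Egln3, Slc16a3 and Epas1 have the widest ranges over the libraries.

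Of the 34 genes, 3 differed between the library prefixes. In an edgeR test between the 3 prefixes with genotype as a covariate, 3 of the 34 genes (8.82%) were called, beside 6.08% of all genes tested. At an unadjusted p under 0.05 there were 10 (29.4%), beside 23.0% of all genes tested, so the share of these genes was near the background. Hk1 averaged 4.72, 4.68 and 4.10 log2 CPM in prefixes 1, 4 and 5 (edgeR adjusted p = 0.0186). Slc2a1 averaged 3.15, 3.57 and 2.95 (edgeR adjusted p = 0.0319). Hk1 and Slc2a1 were both lowest in prefix 5, and WT 5-3 held the lowest value of each, 3.81 and 2.48. Hk2, which took most of the hexokinase level, averaged 8.69, 8.88 and 8.25 and was not called (edgeR adjusted p = 0.179). Bnip3l averaged 6.43, 6.19 and 6.59 (edgeR adjusted p = 0.0322) and was highest in prefix 5.

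Each of these 3 calls was lost on leaving out some single libraries. Hk1 passed in 15 of 17 alternatives, and not without Het 5-5 or without WT 5-3, with adjusted p from 0.000287 to 0.0801. Slc2a1 passed in 9 of 17 (0.00347 to 0.0752), and was lost without Het 4-5, Het 5-5, WT 1-3, WT 4-1, WT 4-3, WT 4-4, WT 5-1 or WT 5-3. Bnip3l passed in 7 of 17 (0.00102 to 0.106), and was lost with no filter on low counts and without Het 1-2, Het 4-2, Het 4-5, Het 5-5, WT 1-3, WT 4-3, WT 4-4, WT 5-1 or WT 5-3. The summed level of ameloblast markers ran from 307000 to 345000 CPM in prefix 5, 202000 to 286000 in prefix 4 and 233000 to 313000 in prefix 1. Prefixes 1 and 5 thus overlapped, and 1 marker, Ambn, made up 71.8% of the sum. Without Ambn the sums overlapped in all 3 prefixes, at 76600 to 94500, 65300 to 82900 and 70700 to 81700 CPM in prefixes 5, 4 and 1. Erythroid markers, of a lineage in which Bnip3l is known to act, summed to 185 to 368 CPM in prefix 5, 225 to 347 in prefix 4 and 234 to 299 in prefix 1. The part of either in the prefix differences was not tested.

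In the wider pathways no gene was called between genotypes either. Of 12 further HIF pathway genes, 11 were tested, with 5 positive and 6 negative log2 fold changes and none called by edgeR, DESeq2 or limma-voom. At an unadjusted p under 0.05 stood 2 of them. Hif1an, the asparaginyl hydroxylase that blocks the coactivator contact of HIF, gave 0.40 ± 0.13 (edgeR adjusted p = 0.418). Its level was 4.93 ± 0.26 log2 CPM (mean ± SD) over the 5 Het libraries and 4.53 ± 0.23 over the 8 WT libraries. Cited2, which competes with HIF for that coactivator, gave -0.49 ± 0.18 (edgeR adjusted p = 0.566).

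Of 42 further hypoxia-induced genes, 41 were tested, with 19 positive and 22 negative and none called by the 3 tools, and 5 stood at an unadjusted p under 0.05. The smallest p values were those of Plod2, a lysyl hydroxylase of collagen, with 0.46 ± 0.14, and Car12, a carbonic anhydrase, with 0.40 ± 0.12 (edgeR adjusted p = 0.39 for both). Plod2 averaged 7.13 ± 0.11 log2 CPM (mean ± SD) over the 5 Het libraries and 6.63 ± 0.35 over the 8 WT libraries. Within prefixes 1, 4 and 5 its difference was 0.43, 0.81 and 0.11, and that of Car12 was 0.21, 0.36 and 0.53.

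In the rest of glucose metabolism none of the tested genes was called by any of the 3 tools. The 19 tested of 27 further glycolysis and lactate genes had 10 positive and 9 negative log2 fold changes, 1 of them at an unadjusted p under 0.05. That was Minpp1, an inositol polyphosphate phosphatase, with 0.30 ± 0.12 (edgeR adjusted p = 0.635). Next came Slc16a7, the monocarboxylate carrier MCT2, with -0.21 ± 0.12 (edgeR adjusted p = 0.762). The 12 genes of pyruvate dehydrogenase and pyruvate entry had 7 positive and 5 negative values and none at an unadjusted p under 0.05. Pdk4, another kinase of that complex, gave 0.43 ± 0.28 and Pdp1, a phosphatase that reactivates it, -0.20 ± 0.15 (edgeR adjusted p = 0.789 and 0.819). The 11 tested of 14 gluconeogenesis and pentose phosphate genes had 6 positive and 5 negative values, also with none at an unadjusted p under 0.05. G6pdx, which opens the pentose phosphate branch, gave 0.24 ± 0.12, and Pgls, its next enzyme, 0.18 ± 0.10 (edgeR adjusted p = 0.749 and 0.759).

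**Figure D5:**
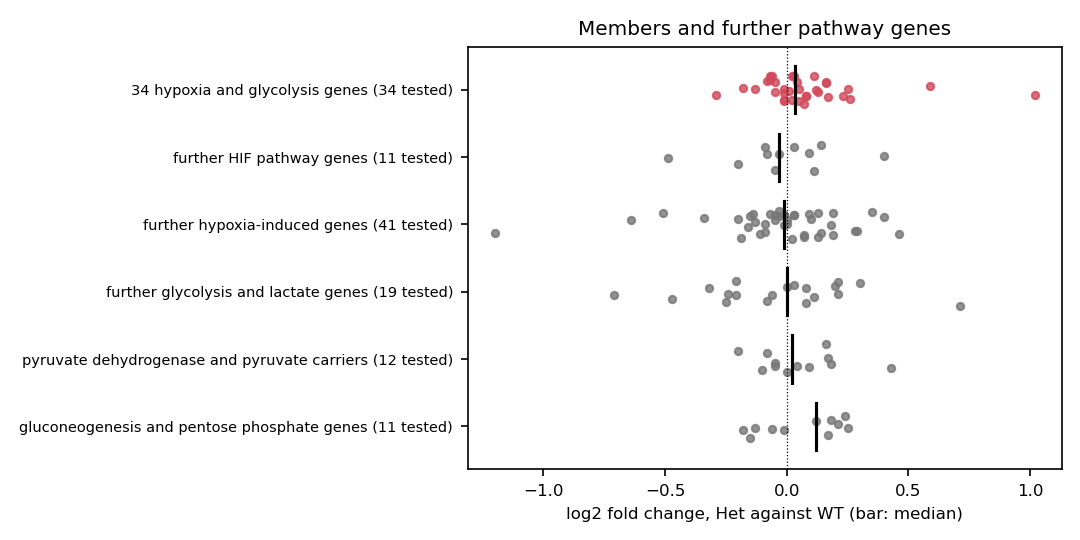
Log2 fold change, Het against WT, of the 34 genes and of 5 lists of further pathway genes, 1 point per tested gene, with list medians as bars. Points are spread vertically only for visibility. The medians lie between -0.03 and 0.12, and no gene shown passed the threshold in edgeR.

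Several glycolytic genes have near-identical copies in the mouse genome, which limits how surely their reads could be placed. Of all 75-base windows of the transcripts of Pgk1, 52.8% also occur in transcripts of other genes. The share was 34.9% for Pgam1, 34.4% for Bnip3, 23.0% for Eno1, 22.6% for Gapdh and 17.8% for Pkm. For Gapdh, 121 other genes share windows, and those with counts held 10849 counts in all, or 55.2% of the 19665 counts of Gapdh. That sum takes every count of those genes, so it does not measure reads placed wrongly. Gm3200 (4231 counts) and Peli2 (2192 counts) held the most, and share 227 and 21 of the 4794 windows of Gapdh. Gm7336 shares the most windows, 1081, and held 19 counts. The levels of these 6 genes are uncertain for that reason. The level of Gapdh also depended on the length used. It was 15.6 ± 1.64 CPM per kilobase of merged exons (SD, n = 13) and 45.4 ± 4.76 per kilobase of the principal transcript. For Ndrg1 the share was 4.71%, and for Hk2, Vegfa and Egln3 it was 0. Pfkp shares 4.87% of its windows with Pitrm1, which overlaps it on the other strand and held 10111 counts beside 7604, so the counts of Pfkp are uncertain as well.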

How the data were processed

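The authors deposited raw counts per gene for 13 libraries, their filtered copy and a scaled signal per gene (CPM with TMM scaling by its name), and the raw counts fed every test. Per the labels' protocols, an unstranded Nextera XT kit and 75-base single reads were used. Of the aligner and genome, the submitters' processing notes list STAR 2.5.2a and GRCm38. The sources used here do not name the counting tool. Features that are no mouse gene (spike-ins and transgenes, at most 0.000177% of counts) were left out.

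Columns were assigned to genotype only. The series' design text counts 5 and 8 mice, and p-values measure the spread between these samples. Genes passing filterByExpr (count minimum 10) were tested in R 4.3.3 by edgeR 4.0.16 (TMM, robust quasi-likelihood fit, Benjamini-Hochberg adjustment). SE were derived from the F statistic. The script was tested on simulated data. Alternatives used DESeq2 1.42.0, limma 3.58.1, other scalings and filters, the prefix as a term, and fewer libraries. Gene models came from GENCODE M21 on GRCm38. All 34 genes are named. Of each further list, genes past the threshold or otherwise the 2 of smallest p are named, and library values are given for the smallest p per role and the widest ranges. Bnip3 and Hif1a were added to these after their values were seen. The genes and lists were chosen with earlier results of these data known. The level of 1 marker gene is not reported here.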

Additional observations from a re-analysis of the deposited data

Results flagged for a closer look

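In 8 of the 68 groups of values checked (34 genes in Het and in WT), 1 library stood far from the others by Dixon's gap test, which chance alone gives in about 1 of 20 groups. All values are log2 CPM. In Het 5-5, Arnt was low at 6.57, with the next Het library at 6.95, and Pfkm was low at 4.02, with the next at 4.44. In Het 1-2, Vhl was low at 3.99, with the next at 4.21. In WT 5-3, Pfkp was low at 3.99 (next 4.52) and Tpi1 at 5.62 (next 5.96). In WT 5-1, Slc2a3 was low at 1.69 (next 2.32) and Pgk1 high at 4.95 (next 4.72). In WT 4-4, Slc16a3 was high at 2.76, with the next WT library at 1.59.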

How the results depend on the processing

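Over 25 alternatives for Het against WT, no gene of the 34 but Ndrg1 passed the threshold, and Ndrg1 passed in 2, with no filter on low counts and with DESeq2, where the number of the 34 genes called was 1 instead of 0. Leaving out each library in turn gave 0. The number of all genes called was 14, and became 27 with no filter, 25 with at least 1 CPM in 5 libraries, 74 with DESeq2 and 30 with the prefix as a term. It became 0, 1 and 2 without prefix 1, 4 and 5 (731 genes at an unadjusted p under 0.05 without prefix 1), 2 without Het 1-2 and WT 1-4, and 6 to 22 leaving out single libraries. Between prefixes, 992 genes were called, against 1866 with no filter, 2140 with DESeq2 and 280 to 1466 leaving out single libraries, and the number of the 34 genes among them, 3, ran from 0 to 5 (0 without Het 5-5 or WT 5-3, where 7 and 8 stood at an unadjusted p under 0.05). The causes were not tested, apart from fewer samples or genes by construction. The median log2 fold change of the 34 ran from -0.00 to 0.09. None of 847 gene values moved by over 1 SD. The sign held in every alternative in which the gene was tested for 16 genes (22 of 25 for Egln3, which was not tested with at least 1 CPM in 5 libraries, without WT 4-4 or without prefix 4) and changed in at least 1 for 18, whose log2 fold changes were at most 0.18 in size. The median of all genes moved by at most 0.00982. At these depths Egln3, with as few as 0 counts, is the least precise of the 34. No paired analysis was possible because the columns carry no replicate number from the labels. The prefix, whose meaning is not stated, is no such number, and the fit with it as a term is the one given above.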
